A study of Rattus norvegicus with 12 samples.

Results

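Axon guidance ligands and receptors were examined in the contused spinal cord of SD and AN rats. The list held 60 genes of the Slit-Robo, netrin, ephrin-Eph, semaphorin-plexin and RGM classes, and 37 of them could be matched to 1 of the 17423 RGD gene identifiers in the tables. These were 5 Slit-Robo, 3 netrin, 11 ephrin-Eph and 17 semaphorin-plexin genes and 1 RGM gene. The other 23 (Slit2, Dcc, Unc5b, Unc5c, Unc5d, Sema3a, Sema3c, Sema3d, Sema3e, Sema4d, Sema6b, Plxna2, Plxna3, Plxnb2, Plxnb3, Plxnc1, Nrp1, Efnb1, Efnb2, Epha3, Ephb3, Ephb4 and Rgmb) were not analysed here. Robo3, with an FPKM of at most 0.079 in any group, was below the minimum used in both phases, which left 36 members.

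SD (Sprague-Dawley, Hsd:SD) rats are immunocompetent, and AN (athymic nude, Hsd:RH-rnu/rnu) rats have no working thymus and few T cells. All 12 rats were female, were 16 to 18 weeks old at injury and received a contusion at a force of 200 kdyn, and no uninjured rat was included. The injured 1-mm segment was collected from 3 rats of each strain at 1 week (acute phase) and from 3 of each strain at 8 weeks (chronic phase), and its polyadenylated RNA was sequenced. Expression is given as FPKM, a level scaled to gene length and to the fragments sequenced, and the tables hold 1 pooled FPKM per group of 3 rats. The spread between rats therefore cannot be computed from these values, no test was made, and the columns of the authors' own test were not used. The depth behind each gene is not given either. The log2FC of a gene is the base-2 logarithm of its AN value divided by its SD value, so that negative values mean lower expression in AN rats. The segment is bulk tissue, in which fewer cells of a type and less RNA per cell cannot be told apart.

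Axon guidance molecules steer growing axons by binding receptors on the growth cone. Slits are secreted repellents that act through Robo receptors, netrins attract through Dcc and repel through Unc5 receptors, ephrins are membrane-bound ligands of Eph receptor tyrosine kinases, and semaphorins signal through plexins, often with a neuropilin as co-receptor. In the adult cord several of them remain in neurons, oligodendrocytes and astrocytes, and after injury some are made by the cells of the scar, where they are known mostly as inhibitors of axon growth.

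The results turned on a few members that were much lower in AN rats. Slit1, Efna3 and Unc5a were at least 2-fold lower in both phases, Efna5 was at least 2-fold lower in the chronic phase only, and 5 others, of which 4 were semaphorins and the fifth was Epha5, were at least 2-fold lower in the acute phase only. No member was at least 2-fold higher in AN rats in either phase. In AN rats Slit1, Efna3 and Unc5a were below an FPKM of 1 in both phases, Efna5 at 8 weeks and Epha5 at 1 week. These differences therefore passed the minimum, an FPKM of 1 in at least 1 strain, through SD rats alone. The promoters of Efna3, Unc5a and Efna5 are shown because these are the members low in the chronic phase for which a promoter sequence was at hand, and the entry for Slit1 is missing. Each run is the RefSeq sequence on the GRCr8 assembly, 5′ to 3′ on the strand of the gene, with 250 bases before and 50 after the start, and capitals mark GC boxes, that is GGGCGG or its complement CCGCCC on either strand. The Efna3 promoter lies at chr2:177035789-177036088 on the minus strand, the Unc5a promoter at chr17:9675614-9675913 on the minus strand and the Efna5 promoter at chr9:110042138-110042437 on the minus strand.
Efna3: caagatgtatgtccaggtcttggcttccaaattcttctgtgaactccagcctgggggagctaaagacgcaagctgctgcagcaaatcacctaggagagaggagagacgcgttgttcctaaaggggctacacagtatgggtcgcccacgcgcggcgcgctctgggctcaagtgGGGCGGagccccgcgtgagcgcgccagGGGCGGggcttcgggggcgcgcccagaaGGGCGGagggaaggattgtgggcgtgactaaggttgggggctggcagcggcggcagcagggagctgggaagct
Unc5a: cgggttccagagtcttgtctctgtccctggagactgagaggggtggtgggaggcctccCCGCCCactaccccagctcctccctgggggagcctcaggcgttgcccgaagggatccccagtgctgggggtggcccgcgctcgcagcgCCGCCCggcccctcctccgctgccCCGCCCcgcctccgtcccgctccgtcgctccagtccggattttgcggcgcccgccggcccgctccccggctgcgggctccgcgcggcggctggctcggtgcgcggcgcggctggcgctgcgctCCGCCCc
Efna5: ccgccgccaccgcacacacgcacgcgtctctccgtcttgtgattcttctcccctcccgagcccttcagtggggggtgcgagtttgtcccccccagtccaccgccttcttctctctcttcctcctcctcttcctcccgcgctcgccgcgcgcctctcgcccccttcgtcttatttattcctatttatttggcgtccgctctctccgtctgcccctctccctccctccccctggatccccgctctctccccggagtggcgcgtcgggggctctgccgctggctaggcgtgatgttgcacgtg
The Efna3 window held 3 GC boxes, the Unc5a window held 4 and the Efna5 window held 0. Of the 33469 windows of this length in the table, 33.1% held at least 1. Of the 29 windows of the 28 members with an entry, 17 held at least 1. These letter matches are a description of the windows and were not related to the expression values.

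Among the Slits, Slit1 (RGD:69307, RN4 chromosome 1, 246813909 to 246964408), a secreted ligand of Robo1 and Robo2, had the lowest acute log2FC of all members. In FPKM it stood at 2.04 in SD and 0.321 in AN rats at 1 week, and 3.21 and 0.558 at 8 weeks. The log2FC was -2.66 at 1 week and -2.52 at 8 weeks, which are levels 6.33-fold and 5.75-fold lower in AN rats. Of all genes compared, 1.95% at 1 week and 1.09% at 8 weeks had a lower log2FC, and of the genes with a mean FPKM under 5, where differences were wider, 6.35% and 3.52% did. Slit3, the other Slit analysed, stood at 3.60 and 3.37 FPKM in acute SD and AN rats and at 4.06 and 3.30 FPKM in chronic SD and AN rats. The Slits thus differed among themselves, with log2FC values of -0.10 and -0.30 for Slit3.

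Of their receptors, Robo1 had the highest FPKM of the class, with 12.4 (SD) and 12.0 (AN) at 1 week and 17.1 (SD) and 22.8 (AN) at 8 weeks. The strains were close in the acute phase (log2FC -0.05), and AN rats were higher in the chronic phase (log2FC 0.41). Robo2 was at 8.34 FPKM in SD and 4.77 in AN rats at 1 week, and at 11.1 in SD and 9.21 in AN rats at 8 weeks. Its log2FC of -0.80 at 1 week and -0.27 at 8 weeks gave a difference of -0.54 between phases, the widest in the class among the members above the minimum. Neither receptor reached a 2-fold difference in either phase.

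Netrin-1 (Ntn1), a secreted cue with both attractive and repulsive receptors, was the member with the highest acute log2FC. In FPKM it stood at 30.7 in SD and 50.5 in AN rats at 1 week, and 33.1 and 47.0 at 8 weeks. The log2FC was 0.72 at 1 week and 0.51 at 8 weeks, and AN rats were higher both times. Netrin-4 (Ntn4), found in basement membranes, was at 8.38 and 7.37 FPKM in acute SD and AN rats and at 10.8 and 9.69 FPKM in chronic SD and AN rats, a log2FC of -0.18 and -0.16.

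The netrin receptor Unc5a (RGD:621755, RN4 chromosome 17, 15670148 to 15724907), which mediates repulsion, differed in the opposite direction to Ntn1. It was at 1.59 FPKM in SD and 0.384 in AN rats at 1 week, and at 2.02 in SD and 0.367 in AN rats at 8 weeks. The log2FC was -2.05 at 1 week and -2.46 at 8 weeks, and 3.66% and 1.24% of the genes compared had a lower value, or 11.7% and 4.02% of those with a mean FPKM under 5. Ligand and receptor of this pair thus differed between strains in opposite directions in both phases.

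Among the A-type ephrins, which are anchored to the membrane by a lipid and bind EphA receptors, Efna3 and Efna5 stood apart from the rest. Efna3 (RGD:620390, RN4 chromosome 2, 181454410 to 181508170) was at 2.46 FPKM in SD and 0.670 in AN rats at 1 week, and at 4.26 in SD and 0.594 in AN rats at 8 weeks. Its log2FC was -1.88 at 1 week and -2.84 at 8 weeks, the latter the lowest chronic value of any member. Of the genes compared, 4.34% and 0.683% had a lower value, or 13.9% and 2.22% of those with a mean FPKM under 5. Efna5 (RGD:620391, RN4 chromosome 9, 101227615 to 101532696) was at 1.79 and 1.18 FPKM in acute SD and AN rats and at 2.33 and 0.915 FPKM in chronic SD and AN rats. The difference was smaller in the acute (log2FC -0.60) than in the chronic phase (log2FC -1.35). These were the only members with a log2FC in the chronic phase lower by more than 0.5 than in the acute phase, apart from Sema4a.

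Efna1 and Efna4 lie on either side of Efna3 on chromosome 2, and neither shared its difference. Efna1, the ephrin with the highest FPKM summed over the groups, was at 16.0 and 18.7 FPKM in acute SD and AN rats and at 14.5 and 15.7 FPKM in chronic SD and AN rats (log2FC 0.23 and 0.12). Efna4 was at 5.48 (SD) and 5.64 (AN) FPKM at 1 week and 3.97 (SD) and 4.38 (AN) FPKM at 8 weeks (log2FC 0.04 and 0.14). Efna2, also close between strains, was at 8.13 (SD) and 7.20 (AN) FPKM at 1 week and 7.11 (SD) and 5.85 (AN) FPKM at 8 weeks (log2FC -0.18 and -0.28). The transmembrane ephrin Efnb3, known as an inhibitor of axon growth in myelin, was at 8.39 FPKM in SD and 4.39 in AN rats at 1 week, and at 26.1 in SD and 23.1 in AN rats at 8 weeks. Its log2FC was -0.93 at 1 week and -0.18 at 8 weeks.

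The Eph receptors spanned a narrower range than the ephrins. Epha5, a neuronal receptor of A-type ephrins, was the only receptor kinase at least 2-fold lower, with 2.71 FPKM in SD and 0.961 in AN rats at 1 week and with 3.83 and 2.91 FPKM at 8 weeks. Its log2FC was -1.49 at 1 week and -0.40 at 8 weeks, a difference of -1.09 between phases and the widest in the class. Of genes with a mean FPKM under 5, 20.6% had a lower acute value. Epha4, which binds ephrins of both types and with them Efnb3, was at 4.70 and 2.62 FPKM in acute SD and AN rats and at 9.11 and 6.62 FPKM in chronic SD and AN rats (log2FC -0.84 and -0.46). At 1 week the remaining receptors were closer between strains, whereas at 8 weeks Ephb1 had the widest difference of the 5. Epha7, another EphA receptor, was at 5.43 (SD) and 4.68 (AN) FPKM at 1 week and 4.84 (SD) and 6.18 (AN) FPKM at 8 weeks (log2FC -0.21 and 0.35). Of the B-type receptors, which also bind Efnb3, Ephb1 was at 16.5 (SD) and 14.9 (AN) FPKM at 1 week and 12.2 (SD) and 8.55 (AN) FPKM at 8 weeks (log2FC -0.15 and -0.51), lower in AN rats both times. Ephb2 was at 7.92 (SD) and 5.79 (AN) FPKM at 1 week and 4.44 (SD) and 5.93 (AN) FPKM at 8 weeks (log2FC -0.45 and 0.42), so that its direction turned. All 5 Eph receptors were lower in AN rats in the acute phase, and 3 of 5 were lower in the chronic phase.

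**Figure D1:**
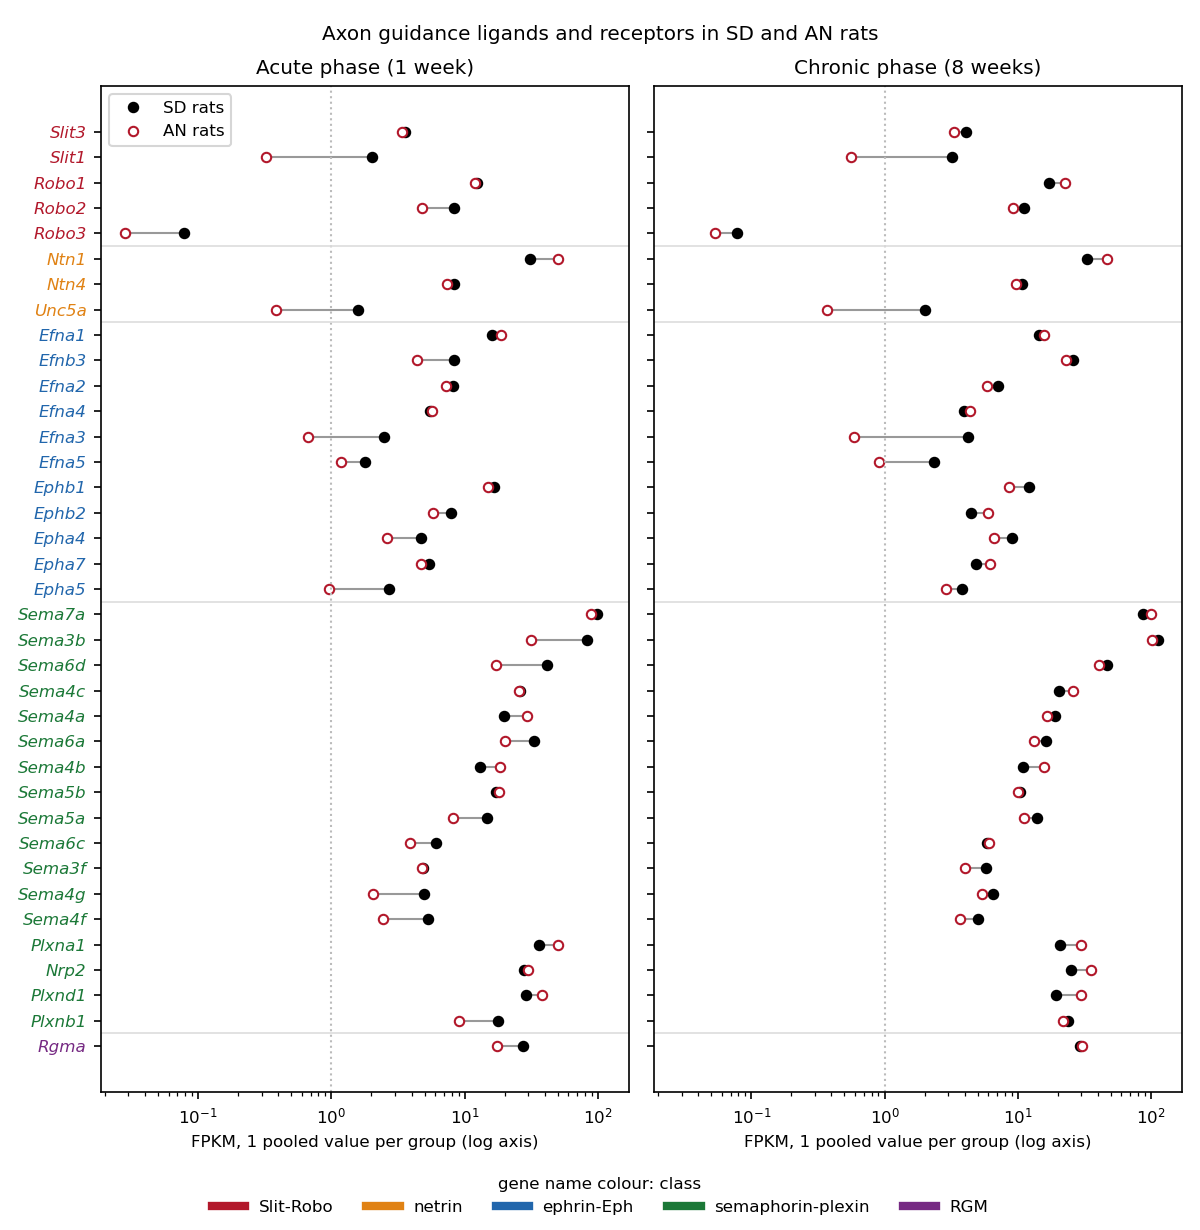
FPKM of the 37 members in SD rats (filled circles) and AN rats (open circles) on a log axis, with acute and chronic phases in separate panels, each circle being 1 pooled value for 3 rats and the dotted line an FPKM of 1. Slit1, Unc5a and Efna3 have the widest gaps among the members above the minimum in both panels, whereas Sema3b is at 83.3 and 31.6 FPKM in the acute panel and at 112.9 and 101.6 FPKM in the chronic panel.

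The plot of levels by group shows that the widest strain gaps were in members of low level, and that the semaphorins included the members of highest level. Sema7a, a lipid-anchored semaphorin that also has roles in immune cells, had the highest summed FPKM of all members, with 99.3 (SD) and 89.0 (AN) at 1 week and 87.7 (SD) and 99.8 (AN) at 8 weeks. Its log2FC was -0.16 at 1 week and 0.19 at 8 weeks, so the strains stayed close.

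Sema3b, Sema6d, Sema4g and Sema4f were at least 2-fold lower in AN rats in the acute phase only. Of genes with a mean FPKM from 20 to 100, 2.43% and 2.88% had a lower acute log2FC than Sema3b and Sema6d. For Sema4g and Sema4f this was 24.4% and 27.4% of genes with a mean under 5. Sema3b (RGD:1310079, RN4 chromosome 8, 112845709 to 112852565), a secreted ligand that binds neuropilins, was at 83.3 FPKM in SD and 31.6 in AN rats at 1 week, and at 112.9 in SD and 101.6 in AN rats at 8 weeks. The log2FC was -1.40 at 1 week and -0.15 at 8 weeks, and this difference of -1.25 was the widest of all members. Sema6d (RGD:1310910, RN4 chromosome 3, 111890235 to 111948388), a transmembrane ligand of Plxna1, was at 41.6 and 17.3 FPKM in acute SD and AN rats and at 46.4 and 41.0 FPKM in chronic SD and AN rats (log2FC -1.27 and -0.18). For both genes the acute AN group was the low one, and the other 3 groups were all higher.

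Sema4g and Sema4f, transmembrane semaphorins of the fourth subclass, also had their lowest level in acute AN rats. Sema4g was at 4.93 and 2.05 FPKM in acute SD and AN rats and at 6.53 and 5.43 FPKM in chronic SD and AN rats (log2FC -1.26 and -0.26). Sema4f was at 5.32 and 2.43 FPKM in acute SD and AN rats and at 5.06 and 3.67 FPKM in chronic SD and AN rats (log2FC -1.13 and -0.46). Further transmembrane semaphorins were lower in acute AN rats by less than 2-fold. Sema5a, which carries thrombospondin repeats, was at 14.7 (SD) and 8.11 (AN) FPKM at 1 week and 13.9 (SD) and 11.1 (AN) FPKM at 8 weeks (log2FC -0.86 and -0.33). Sema6a, a ligand of plexin-A receptors, was at 33.4 (SD) and 19.95 (AN) FPKM at 1 week and 16.2 (SD) and 13.2 (AN) FPKM at 8 weeks (log2FC -0.74 and -0.29). Sema6c was at 6.07 (SD) and 3.87 (AN) FPKM at 1 week and 5.85 (SD) and 6.07 (AN) FPKM at 8 weeks (log2FC -0.65 and 0.05).

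At 1 week the remaining semaphorins were closer between strains or higher in AN rats. Sema4a, which also acts in immune cells, was at 19.8 FPKM in acute SD and 29.6 in acute AN rats and at 18.9 and 16.7 in the chronic phase, so that the direction turned from a log2FC of 0.58 to -0.18. Sema4b was higher in AN rats in both phases, at 13.1 (SD) and 18.4 (AN) FPKM at 1 week and 11.0 (SD) and 15.7 (AN) FPKM at 8 weeks (log2FC 0.49 and 0.51). Sema4c was at 26.1 (SD) and 25.7 (AN) FPKM at 1 week and 20.3 (SD) and 25.8 (AN) FPKM at 8 weeks (log2FC -0.02 and 0.34). In Sema5b, a relative of Sema5a, the strains were close in both phases, at 17.3 (SD) and 18.1 (AN) FPKM at 1 week and 10.4 (SD) and 10.0 (AN) FPKM at 8 weeks (log2FC 0.06 and -0.04). Sema3f, a secreted ligand of Nrp2, was at 4.91 (SD) and 4.81 (AN) FPKM at 1 week and 5.78 (SD) and 4.05 (AN) FPKM at 8 weeks (log2FC -0.03 and -0.52), close at 1 week and with the lowest chronic log2FC of the semaphorin-plexin class.

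Of the 4 semaphorin receptors, 3 were higher in AN rats in both phases. Plxna1 was at 36.1 and 50.1 FPKM in acute SD and AN rats and at 20.9 and 29.6 FPKM in chronic SD and AN rats (log2FC 0.47 and 0.50), while its ligand Sema6d was lower in AN rats both times. Nrp2, the neuropilin that binds Sema3f and also Sema3b, was at 27.7 (SD) and 29.8 (AN) FPKM at 1 week and 25.1 (SD) and 35.2 (AN) FPKM at 8 weeks (log2FC 0.11 and 0.49). Plxnd1, a plexin prominent in blood vessels, was at 29.1 and 37.8 FPKM in acute SD and AN rats and at 19.4 and 29.8 FPKM in chronic SD and AN rats, and its chronic log2FC of 0.62 was the highest of any member (0.37 in the acute phase). Plxnb1 was the exception, with 17.7 and 9.11 FPKM in acute SD and AN rats and a log2FC of -0.96, and with 24.0 and 21.8 FPKM and -0.14 in the chronic phase.

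Rgma, a repulsive ligand of neogenin and a known inhibitor of axon growth in the cord, was at 27.2 FPKM in SD and 17.6 in AN rats at 1 week, and at 29.2 in SD and 30.2 in AN rats at 8 weeks. Its log2FC was -0.63 at 1 week and 0.05 at 8 weeks.

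Over all members in the acute phase, 8 of 36 (22.2%) were at least 2-fold lower in AN rats, beside 11.4% of the 11324 genes compared by the same rule. In the same phase 0 of 36 were at least 2-fold higher, beside 2.07% of all genes. In the chronic phase 4 of 36 (11.1%) were at least 2-fold lower, beside 6.33% of 11427 genes, and 0 of 36 were at least 2-fold higher, beside 2.28%. Each member makes up 2.78% of such a share. The members had a median log2FC of -0.33 at 1 week and -0.17 at 8 weeks, where the medians over all genes were -0.00165 and 0.00441. In the acute phase 27 of 36 members, and in the chronic phase 22 of 36, had a log2FC below 0, beside 50.2% and 49.3% of all genes.

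The level of a gene moved with these shares. In the acute phase 30.5% of all genes with a mean FPKM under 5 were at least 2-fold lower in AN rats, against 8.89% of those from 5 to 20 and 4.17% of those from 20 to 100. Of the members, 6 of 11 under a mean of 5, 0 of 14 from 5 to 20 and 2 of 11 from 20 to 100 were at least 2-fold lower, and these last were Sema3b and Sema6d. In the chronic phase all 4 members at least 2-fold lower were among the 9 with a mean under 5, where the share of all genes was 19.2%. All 4 passed the minimum through SD rats alone. The names also bear on the counts: 17 members were named from the study's own symbol table, of which only a part was used here, and the rows of that part are all marked by the study as changed at 1 week. When that table was left out, 34 members were named, among them neither Slit1, Efna3 nor Sema6d, and 33 of them were above the minimum. Of these 33, 5 (15.2%) were at least 2-fold lower at 1 week, beside the 11.4% of all genes, and 2 (6.06%) at 8 weeks, beside the 6.33%. The chronic share of members was then near that of all genes, and the acute share was closer to it than with all names.

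By class, the acute median log2FC was -0.45 for the 4 Slit-Robo members, -0.45 for the 11 ephrin-Eph members, -0.18 for the 3 netrin members and -0.16 for the 17 semaphorin-plexin members. The chronic medians were -0.28, -0.28, -0.16 and -0.14 in the same order. The classes hold few genes and their ranges overlapped, and the 2-fold differences fell in different phases. Of the semaphorin-plexin class 4 members were at least 2-fold lower at 1 week and 0 at 8 weeks, and its chronic values ran from -0.52 to 0.62. Slit1 of the Slit-Robo and Unc5a of the netrin class were at least 2-fold lower in both phases. Of the ephrin-Eph class Efna3 and Epha5 were so at 1 week, and Efna3 and Efna5 at 8 weeks. Within the semaphorin-plexin class the 13 ligands had an acute median of -0.65 and the 4 receptors one of 0.24, and in the chronic phase these were -0.18 and 0.49.

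**Figure D2:**
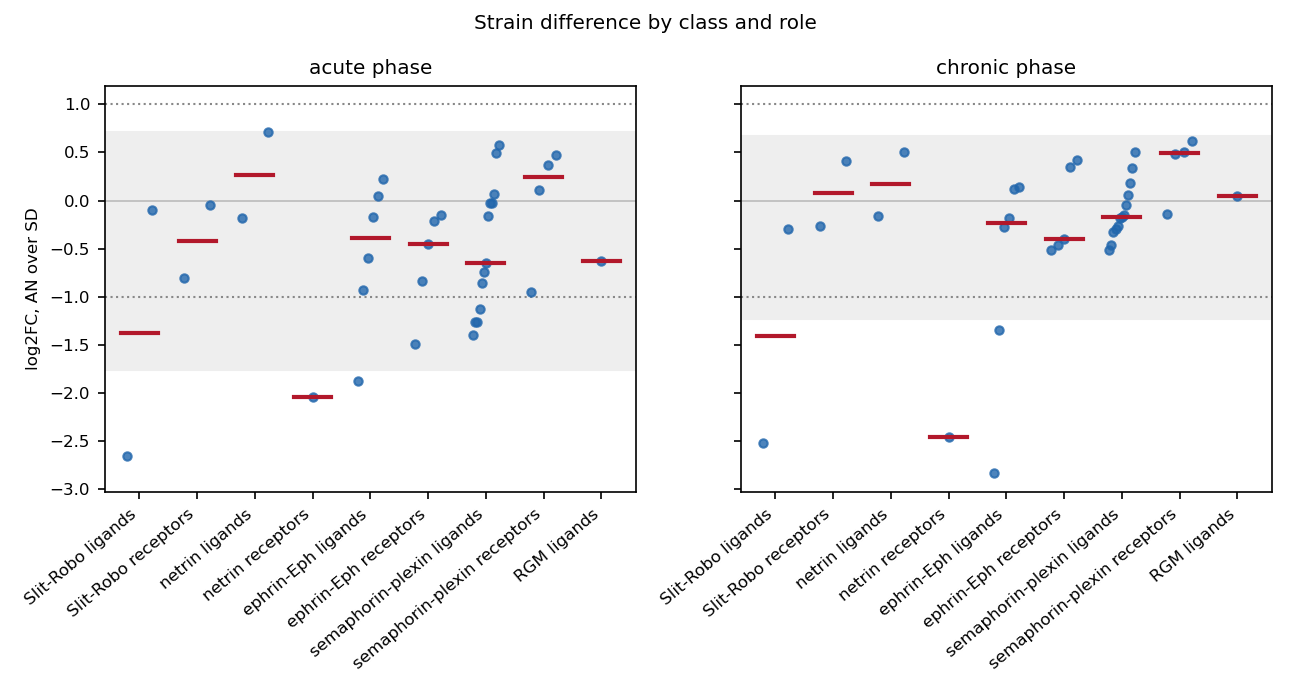
log2FC (AN over SD) of the 36 members by class and role in the acute and chronic phase, each point a gene and each red bar a median, with the 5th to 95th percentile of all genes shaded and dotted lines at 2-fold. The semaphorin ligands spread down to -1.40 in the acute panel and lie between -0.52 and 0.51 in the chronic panel, while 1 Slit, 1 netrin receptor and 1 ephrin lie below the shaded range in both.

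The plot by class and role puts the members against all genes. The shaded range ran from -1.76 to 0.71 in the acute and from -1.23 to 0.67 in the chronic phase, and Slit1, Unc5a and Efna3 lay below it in both. All 3 have a mean FPKM under 5. The 5th percentile of all genes with a mean under 5 stood at -2.89 at 1 week and -2.31 at 8 weeks. Against these genes the 3 members lay within the range at 1 week and below it at 8 weeks. Genes as low as these 3 were not compared separately. Ntn1 lay just above the shaded range in the acute phase.

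Between phases, 20 of 36 members were lower in AN rats both times, 7 were higher both times, 7 were lower at 1 week and higher at 8 weeks, and 2 had the opposite order. The acute log2FC was below the chronic one in 25 of 36 (69.4%), beside 55.0% of all genes, and in 6 of the 8 members at least 2-fold lower in the acute phase, beside 91.4% of all genes lower by that rule. It was at least 1 apart between phases in 3 members (Sema3b, Sema6d and Epha5), and Sema4g, at -0.9986, fell just short of it. Over all genes, 7.32% of 11106 were at least 1 apart. Of the 8 members at least 2-fold lower in the acute phase, 3 were at least 2-fold lower in the chronic phase too, beside 44.0% of the genes that were at least 2-fold lower in the acute phase. The difference between phases was small for Slit1 (-0.14). It was positive for Unc5a (0.42) and Efna3 (0.96), whose gap between strains was wider at 8 weeks.

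**Figure D3:**
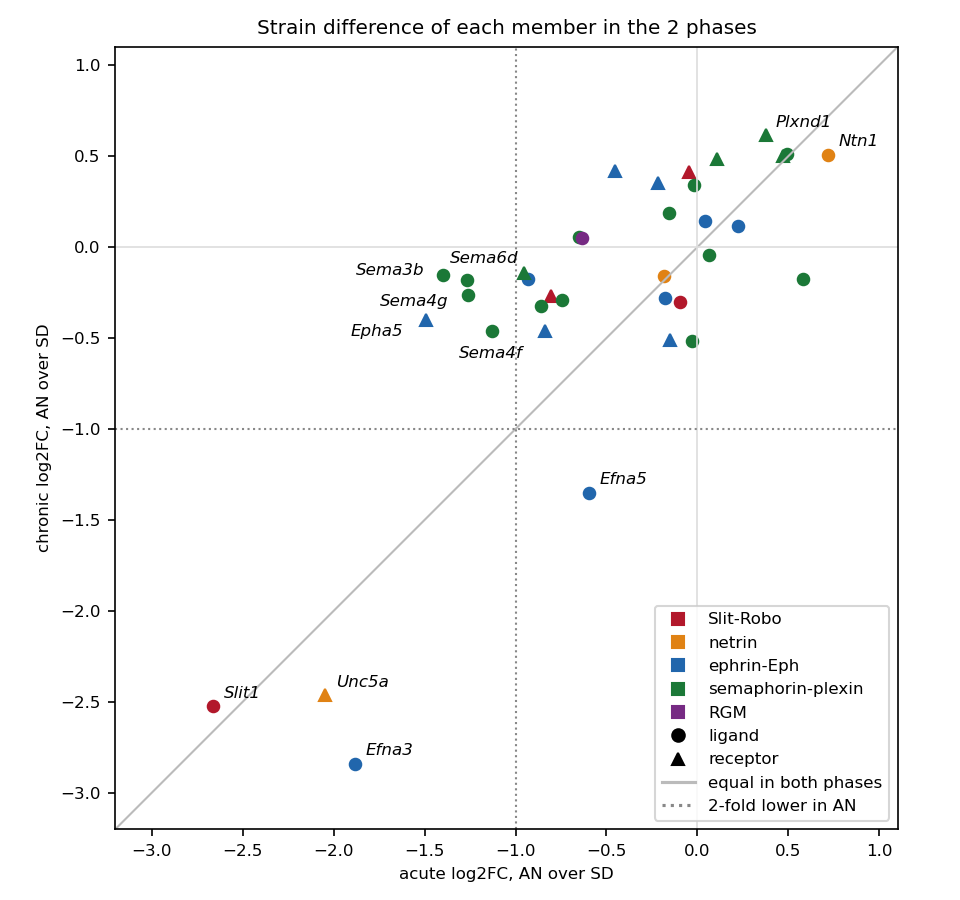
Chronic against acute log2FC (AN over SD) of the 36 members, coloured by class, with circles for ligands and triangles for receptors, a grey line where both phases are equal and dotted lines at 2-fold lower in AN rats. Slit1, Unc5a and Efna3 lie below -1 on both axes, Efna5 on the chronic axis only (-1.35), and 5 members between -1.13 and -1.49 on the acute axis only.

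The plot of both phases separates the members low throughout from those low at 1 week only. Levels can also be followed over time within a strain, as a description, since each phase was normalized separately. Slit1, Unc5a and Efna3 could not be followed in AN rats, where they were below an FPKM of 1 in both phases. In AN rats 7 of 33 members (21.2%) were at least 2-fold higher at 8 weeks than at 1 week, beside 12.7% of all genes, and 0 of 33 were at least 2-fold lower, beside 6.38%. These 7 were Efnb3 (5.25-fold), Sema3b (3.21-fold), Epha5 (3.03-fold), Sema4g (2.65-fold), Epha4 (2.52-fold), Plxnb1 (2.39-fold) and Sema6d (2.37-fold). In SD rats 1 of 36 was at least 2-fold higher, beside 3.58% of all genes, and 1 was at least 2-fold lower, beside 3.83%. The first was Efnb3, which was 3.11-fold higher at 8 weeks, and the second was Sema6a, at 33.4 FPKM at 1 week and 16.2 at 8 weeks. The level of Efnb3 was thus higher at 8 weeks in both strains, whereas Sema3b and Sema6d differed over time mainly in AN rats.

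Markers of several cell types also differed between strains. All 10 neuron markers found of 13 listed were at least 2-fold lower in AN rats in the acute phase and 9 of 10 in the chronic phase, with median log2FC values of -2.33 and -1.69. Summed over the list, FPKM came to 1393 (SD) and 222 (AN) at 1 week, and 1274 and 409 at 8 weeks. All 10 were named from the same part of the study's table. When it was left out 8 were named, and 8 of these were at least 2-fold lower at 1 week and 7 at 8 weeks. Snap25, a synaptic protein, had the lowest values of the list (-4.72 and -3.14). The median of the neuron list was thus past 2-fold in both phases, as were Slit1, Efna3 and Unc5a, and its part in their difference was not tested.

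Many markers of oligodendrocytes and Schwann cells were at least 2-fold lower in AN rats at 1 week only. Of the astrocyte markers this held for Slc1a2 and S100b, and of the oligodendrocyte precursor markers for none. Of the 7 oligodendrocyte markers found of 10, 5 were at least 2-fold lower at 1 week and 0 at 8 weeks (medians -1.27 and -0.19), and their summed FPKM was 2856 and 1428 in acute SD and AN rats and 2778 and 2821 in chronic SD and AN rats. All 8 Schwann cell markers were found, of which 5 were at least 2-fold lower at 1 week and 0 at 8 weeks (medians -1.22 and 0.21), with summed FPKM of 2016 and 760 in acute SD and AN rats and of 1890 and 2108 in chronic SD and AN rats. Of 5 astrocyte markers found of 9, 3 were at least 2-fold lower in the acute phase, with a median of -1.48, and 0 of 4 in the chronic phase, with a median of -0.21. Their summed FPKM without Gfap, whose chronic SD estimate failed, was 2467 and 902 in acute SD and AN rats and 4922 and 3615 in chronic SD and AN rats. Most of this was S100b, and without it the sums were 294 and 266 in acute SD and AN rats and 461 and 456 in chronic SD and AN rats, with Gja1 at an acute log2FC of 0.12. The loci of Mog and S100b, of Nefl among the neuron markers and of Gpr17 among the oligodendrocyte precursor markers are each shared by another identifier, so their values are uncertain. From the part of the study's table marked as changed at 1 week came the names of 6 oligodendrocyte and 7 Schwann cell markers. When it was left out, 3 of 5 and 4 of 6 were at least 2-fold lower at 1 week, and 0 at 8 weeks. The medians of the oligodendrocyte, Schwann cell and astrocyte lists were past 2-fold at 1 week only. So was that of the T cell list (-1.20 and -0.28). The same held for Sema3b, Sema6d, Sema4g, Sema4f and Epha5, and the part of these lists in their difference was not tested.

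The fibroblast list was higher in AN rats in both phases, and the macrophage and microglia list at 1 week. All 8 fibroblast markers were above 0 in both phases (medians 0.67 and 0.67), with 2 at least 2-fold higher in each, and their summed FPKM was 4157 and 6836 in acute SD and AN rats and 1713 and 2615 in chronic SD and AN rats. Of the 6 macrophage and microglia markers found of 11, 3 were at least 2-fold higher at 1 week and 0 at 8 weeks (medians 0.89 and -0.01), with summed FPKM of 600 and 893 and then of 431 and 428. The 3 endothelial markers found of 9 had medians of -0.11 and 0.21, with summed FPKM of 77.2 and 82.2 in acute SD and AN rats and of 76.4 and 121.9 in chronic SD and AN rats. Ntn1, Plxna1, Plxnd1, Nrp2, Sema4b, Efna1 and Efna4 were above 0 in both phases like the fibroblast list, while Sema4a and Sema5b were above 0 in the acute phase and below it in the chronic phase. Of the 6 macrophage and microglia markers, 6 were above 0 at 1 week and 3 at 8 weeks. The part of these lists in their values was not tested.

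In the last lists, the 6 oligodendrocyte precursor markers held 0 genes at least 2-fold apart in either phase (medians -0.28 and -0.20), with summed FPKM of 376 and 294 and then of 285 and 255. Of the 7 T cell markers found of 8, 5 were above the minimum in each phase, and in the acute phase 3 were at least 2-fold lower and 1 was at least 2-fold higher. At 8 weeks 0 were lower and 1 was higher, which was Cd2 at 1.88 FPKM in SD and 3.81 in AN rats (log2FC 1.02). Cd3g, part of the CD3 complex of T cells, was at 2.74 FPKM in SD and 0.531 in AN rats at 1 week, and at 2.58 in SD and 1.40 in AN rats at 8 weeks, whereas Cd8a had an acute log2FC of 1.39 and a chronic one of -0.37. The summed FPKM of the T cell list, most of it Cd4 and Cd8a, was 185 in SD and 246 in AN rats at 1 week. At 8 weeks it was 131 and 110. According to the study, Cd8a is also found on NK cells and infiltrating macrophages, so this sum does not measure T cells alone. At 1 week Cd8a and Cd2 were higher in AN rats, and Cd4, Cd3d, Cd3e, Cd3g and Cd247 were lower. No marker found was listed at 0 in any group, apart from Gfap in its failed estimate.

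**Figure D4:**
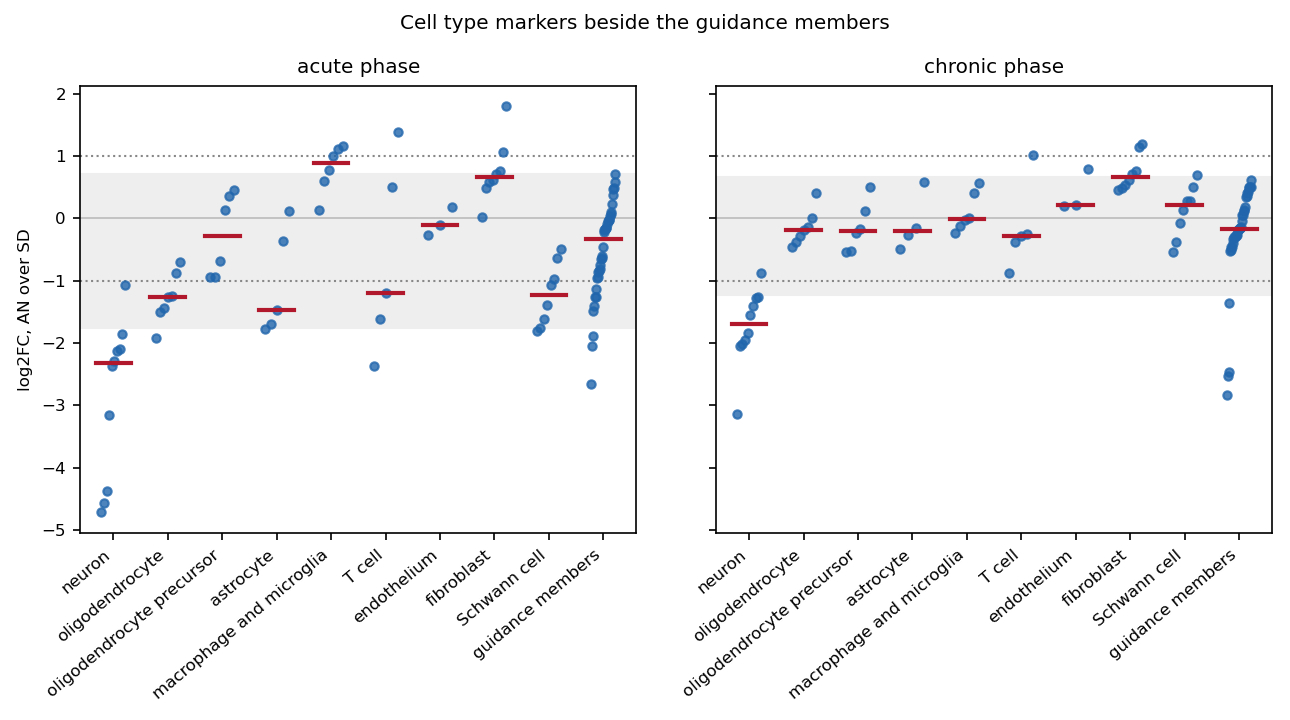
log2FC (AN over SD) of marker genes of 9 cell types and of the 36 guidance members, in the acute and chronic phase, with each point a gene, each red bar a median, the 5th to 95th percentile of all genes shaded and dotted lines at 2-fold. The neuron median is -2.33 (acute) and -1.69 (chronic), while the oligodendrocyte and Schwann cell medians move from -1.27 and -1.22 to -0.19 and 0.21. The astrocyte and T cell medians move from -1.48 and -1.20 to -0.21 and -0.28.

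The plot of markers beside the members shows both patterns side by side, and only the neuron median lies below the shaded range in both panels.

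Genes next to the members in the same pathways were taken from lists. Of 16 further ligands and receptors of these classes, 12 were found and 10 were above the minimum. In the acute phase 3 of 10 (30%) were at least 2-fold lower, beside 11.4% of all genes, and 0 were higher, and in the chronic phase 1 (10%) was lower, beside 6.33%, and 1 was higher. Of the 7 with an acute mean FPKM under 5, 2 (28.6%) were lower at 1 week, close to the 30.5% of all genes of that level. Epha10, an Eph receptor without kinase activity, was the lowest in both phases (log2FC -2.31 and -1.16, from 3.18 and 0.643 FPKM in acute SD and AN rats). Epha8 was the highest in the chronic phase, at 1.88 FPKM in SD and 8.07 in AN rats (log2FC 2.10), and was at 1.81 and 1.58 FPKM in the acute phase.

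Cytoplasmic effectors, which carry guidance signals to the cytoskeleton, had medians near 0 (-0.09 and 0.01). Of 46 listed, 24 were found, and 3 (12.5%) were at least 2-fold lower at 1 week and 4 (16.7%) at 8 weeks, beside 11.4% and 6.33% of all genes, with 0 higher. Chn1 and Ngef, both among these, could not be named without the study's own table. Without it 23 effectors were named, and 2 of 23 were at least 2-fold lower in each phase. At 1 week these 2 included an identifier not among the 24 found with all names (log2FC -1.46). The lowest were Chn1, a regulator of Rac that acts downstream of Epha4, in the acute phase (log2FC -1.73, and -1.63 in the chronic phase) and Rnd1, a small GTPase that binds plexins, in the chronic phase (log2FC -1.90, and -1.03 in the acute phase). Of 9 myelin-associated growth inhibitors and their receptors 5 were found. At 1 week 2 of 5 were at least 2-fold lower and 2 at least 2-fold higher, beside 11.4% and 2.07% of all genes, and at 8 weeks 1 of 4 was lower and 1 was higher, beside 6.33% and 2.28%. When the study's own table was left out, 1 of 4 was lower at 1 week and 0 of 3 at 8 weeks. Lingo1, a neuronal co-receptor of the Nogo receptor that was given another identifier when the study's own table was left out, was at 11.9 FPKM in acute SD and 1.71 in acute AN rats and at 18.7 and 3.65 FPKM in the chronic phase, with a log2FC of -2.79 and -2.36. Lilrb3 was the highest in the chronic phase (log2FC 2.69, from 5.67 and 36.5 FPKM in SD and AN rats), and Rtn4rl2 the highest in the acute phase (log2FC 1.46).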

How the data were processed

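Polyadenylated RNA of 12 injured spinal cord segments was sequenced as paired-end reads, and the authors trimmed adapters (CutAdapt), aligned reads to RN4 (TopHat 1.5.0), assembled transcripts with Cufflinks 0.0.6 using quartile normalization, merged them for each time point and compared strains with CuffDiff. The 2 tables the authors deposited, 1 per phase, hold 1 FPKM value per group of 3 rats, normalized separately for each phase. Their columns of fold changes, test statistics, p-values and q-values between strains were not used. Estimates that the tables mark as failed were left out (3 genes at 1 week and 2 at 8 weeks), and 0 columns of single rats were set aside. Since the reads per gene are not given, the precision of single values is unknown.

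From the FPKM values log2FC was computed without a pseudocount (Python 3.11, pandas and numpy) where 1 strain or both reached an FPKM of 1 and both were above 0. Genes at least 2-fold apart were counted, beside the same count over all genes. The strains entered no test, because the tables hold no value per rat.

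The tables list RGD identifiers without symbols. Names came from the part of the study's supplementary symbol table used here (1803 identifiers), whose rows are all marked as changed at 1 week, from RGD synonyms in the RefSeq gene table of GRCr8 (2734) and from gene order between these (8180). Settings of the last step were chosen with held-out accuracy in view: of 2250 held-out names 1679 were given again and 1639 of these (97.6%) were right. Of the members 17 were named in the first way, 3 in the second and 17 in the third, and 14 of the first 17 were given the same identifier without the supplementary table. RN4 coordinates were taken from the tables and count from 1.

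The members and lists were chosen with earlier results of these data known. Members at least 2-fold apart in a phase, those of highest summed level and of widest difference between phases in each class, ligand-receptor partners, and the lowest and highest genes of each list were named. Cd3g, Cd8a and Cd4 were named as the T cell check of the strain labels. Ngef and the other T cell markers found were named after their values were seen. The other semaphorins, ephrins and Eph receptors, as well as Rgma, were named so that every member found is accounted for. Alternatives were another centring, another scaling, other FPKM minimums, a pseudocount of 1, other folds and other naming.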

Additional observations from a re-analysis of the deposited data

How the results depend on the processing

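The counts and medians were recomputed under each alternative, 113 values in all. Of these, 87 stayed within 1.5 times the count or within 0.1 of the median, 23 moved further and 3 medians changed sign. No leave-out of a rat was possible, since each group has 1 pooled value, and no paired analysis was possible because the result comes from no test. Centring on the median of all genes or rescaling each group to the same FPKM sum moved none of the values that far. With an FPKM of at least 5 in 1 strain, 3 members at 1 week and 0 at 8 weeks were at least 2-fold lower in AN rats, the acute median of the members was -0.18, and the ephrin-Eph medians were -0.18 in both phases. The chronic Slit-Robo median then changed sign to 0.074 and the netrin medians to 0.27 and 0.17, because Slit1, Slit3 and Unc5a are below this minimum. Without any minimum the acute medians of the members and of the Slit-Robo class were -0.45 and -0.80. With a pseudocount of 1, 4 members were at least 2-fold lower in the acute phase. At 1.5-fold, 17 members were lower in the acute phase and 1 was higher in each phase, and at 3-fold 3 were lower in the acute phase. Naming without the supplementary table gave 5 acute and 2 chronic members at least 2-fold lower, and acute medians of -0.18 for the members, -0.33 for ephrin-Eph and -0.10 for Slit-Robo genes. Naming directly only gave acute medians of -0.90 for the members, -0.96 for semaphorin-plexin, -0.93 for ephrin-Eph and -1.73 for Slit-Robo genes, and chronic medians of -0.40 for ephrin-Eph and -1.40 for Slit-Robo genes. For cell type markers named without that table, an alternative chosen after seeing the data, each count at least 2-fold apart stayed within 1.5 times, except that 3 instead of 5 oligodendrocyte markers were lower in the acute phase.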

Other observations

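Adhesion molecules with roles in axon guidance were listed beside the members, and 12 of 17 were found, 11 of them above the minimum. In the acute phase 5 of 11 (45.5%) were at least 2-fold lower in AN rats, beside 11.4% of all genes, and 0 higher, and in the chronic phase 3 (27.3%) were lower, beside 6.33%, and 0 higher, with median log2FC values of -0.91 and -0.37. In each phase 5 of them had a mean FPKM under 5. Of these, 4 (80%) were at least 2-fold lower at 1 week and 3 (60%) at 8 weeks. The shares of all genes of that level were 30.5% and 19.2%. Flrt1 and Flrt3, both in the list, each share a locus with another identifier, so their values are uncertain. The Slitrk genes, transmembrane proteins of synapses and neurites, were among the lowest: Slitrk1 was at 3.17 FPKM in acute SD and 0.907 in acute AN rats (log2FC -1.81, and -1.11 in the chronic phase), and Slitrk5 had the lowest chronic value (-1.40). Flrt2, a ligand of Unc5 receptors, was the highest in both phases, at 15.5 and 28.5 FPKM in acute SD and AN rats and 8.88 and 16.7 FPKM in chronic SD and AN rats (log2FC 0.88 and 0.91). It was higher in AN rats in both phases, where Unc5a was lower.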
